A study of Mus musculus with 5 samples.

Results

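Cytochrome P450 genes encode haem-containing monooxygenases, and their H3K27me3 was read here from ChIP-Seq interval lists of mouse embryonic fibroblasts (MEFs). The members were the protein-coding genes of chromosomes 1 to 19 in the GENCODE vM1 annotation of mm9 whose symbols have the form Cyp, family number, subfamily letter and gene number. This rule found 97 genes of 21418 protein-coding genes on these chromosomes. It took in 2 symbols that end in -ps, Cyp2d37-ps and Cyp2j7-ps, which the annotation lists as protein-coding.

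P450 enzymes insert an oxygen atom into small lipophilic molecules, and each family is known for its substrates. Families 1 to 4 hold most enzymes of drug, fatty acid and eicosanoid oxidation and often lie in tandem clusters, while other families make or break down steroid hormones, bile acids, vitamin D and retinoic acid. Many P450 genes are active in liver, adrenal gland, gonad or kidney and silent in fibroblasts. H3K27me3 is the product of Polycomb Repressive Complex 2 (PRC2), is found over silent developmental genes, and spreads from sites of PRC2 recruitment, which in mammals are mostly CpG islands (short segments where the dinucleotide CG is frequent).

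All cells were MEFs from 1 embryonic line with loxP sites in Eed, the gene of a PRC2 subunit, and were grown in medium with serum. They were stably transduced with lentivirus for H3.3 K27R, for H3.3 K27M or for human EZHIP, expressed from a vector with an EF1a promoter and selected with puromycin. K27M puts methionine and K27R arginine at the lysine that PRC2 methylates, and EZHIP is the PRC2 inhibitor of PFA ependymoma. Each line gave 1 H3K27me3 library, so that values describe these 3 libraries. Further lines of the series, the untransduced parent and 1 clone with Eed deleted, were not analysed here. The K27R list, with 12845 intervals, served as the reference, against 3736 in K27M and 4992 in EZHIP.

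The lists carry positions without read counts, so that sequencing depth is unknown, and a start site was only scored as inside or outside an interval. As a check of the labelled cell type, the start sites of 1 of 13 fibroblast markers lay in K27R intervals (7.69%, against 28.2% of all genes; Pdgfra, which was in all 3 lists), and 12 lay outside. Of 9 hepatocyte markers, 8 had the start in K27R intervals (88.9%) and 0 in K27M or EZHIP intervals, which held 8.94% and 7.96% of all starts. None of the 9 had a CpG island at the start, and for all genes without one these shares were 4.3% and 4.14%. In the body, K27M intervals overlapped 1 of the 9 and EZHIP intervals 2.

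Most P450 start sites lie in CpG-poor DNA. A CpG island lay within 500 bp of the start in 11 of 97 P450 genes (11.3%, 95% exact interval 5.8 to 19.4%), against 54.3% of all protein-coding genes. The ratio of observed to expected CpG in the 1000 bp around the start had a median of 0.152 in P450 genes and 0.559 in all genes. The 250 bases before the start held a median of 2 CG in P450 genes and 9 in all genes. The following upstream sequences (mm9, 5′ to 3′ on the gene's strand, CG in capitals) are shown because their genes ended in different states. The first 4 had the start in an interval of all 3 lists.

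Cyp26a1, plus strand, chr19:37772048-37772297: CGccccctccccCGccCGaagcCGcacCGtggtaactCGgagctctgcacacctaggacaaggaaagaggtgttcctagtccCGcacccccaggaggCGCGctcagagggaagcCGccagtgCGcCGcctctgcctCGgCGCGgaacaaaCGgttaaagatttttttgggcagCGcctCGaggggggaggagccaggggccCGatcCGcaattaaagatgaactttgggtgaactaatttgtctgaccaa
Cyp24a1, minus strand, chr2:170322646-170322895: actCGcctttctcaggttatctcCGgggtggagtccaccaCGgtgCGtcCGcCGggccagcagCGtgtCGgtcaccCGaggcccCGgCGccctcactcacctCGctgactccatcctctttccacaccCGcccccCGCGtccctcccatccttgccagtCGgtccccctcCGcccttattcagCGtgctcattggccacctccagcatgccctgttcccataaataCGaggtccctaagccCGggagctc
Cyp27b1, plus strand, chr10:126485056-126485305: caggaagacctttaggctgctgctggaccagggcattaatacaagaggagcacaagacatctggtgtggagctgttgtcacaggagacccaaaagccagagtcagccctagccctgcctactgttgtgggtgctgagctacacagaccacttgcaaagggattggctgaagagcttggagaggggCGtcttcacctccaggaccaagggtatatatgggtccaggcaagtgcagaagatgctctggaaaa
Cyp1a1, plus strand, chr9:57545170-57545419: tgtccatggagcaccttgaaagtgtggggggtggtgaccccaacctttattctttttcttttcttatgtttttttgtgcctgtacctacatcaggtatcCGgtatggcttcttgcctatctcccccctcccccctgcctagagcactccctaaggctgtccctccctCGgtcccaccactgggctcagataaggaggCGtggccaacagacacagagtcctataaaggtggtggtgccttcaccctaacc

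The upstream sequences of Cyp26a1 and Cyp24a1 held 20 CG each, a number that 21.6% of all promoters reach. Those of Cyp27b1 and Cyp1a1 held 1 and 3 CG, numbers reached by 92.6% and 75.6% of all promoters. The next 3 sequences had the start in the K27R list only (Cyp2r1 and Cyp2d9) or in no list (Cyp2c29).

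Cyp2r1, minus strand, chr7:121706487-121706736: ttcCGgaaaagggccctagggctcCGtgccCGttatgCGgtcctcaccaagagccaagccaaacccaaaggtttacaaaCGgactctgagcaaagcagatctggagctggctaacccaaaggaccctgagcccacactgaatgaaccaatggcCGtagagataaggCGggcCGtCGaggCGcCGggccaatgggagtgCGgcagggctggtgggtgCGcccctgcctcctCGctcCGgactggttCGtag
Cyp2d9, plus strand, chr15:82282557-82282806: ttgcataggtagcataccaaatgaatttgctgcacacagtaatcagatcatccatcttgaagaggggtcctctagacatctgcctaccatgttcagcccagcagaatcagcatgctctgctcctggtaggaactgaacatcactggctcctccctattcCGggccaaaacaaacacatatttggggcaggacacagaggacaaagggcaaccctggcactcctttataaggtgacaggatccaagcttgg
Cyp2c29, plus strand, chr19:39315191-39315440: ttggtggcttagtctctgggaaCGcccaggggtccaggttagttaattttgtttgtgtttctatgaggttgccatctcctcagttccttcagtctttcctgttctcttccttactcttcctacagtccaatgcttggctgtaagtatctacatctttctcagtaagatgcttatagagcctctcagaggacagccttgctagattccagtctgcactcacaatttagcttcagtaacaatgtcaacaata

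Cyp2r1 had 16 CG in this window, a number that 31.2% of promoters reach, and its start was in neither inhibitor list. Cyp2d9 and Cyp2c29 had 1 CG each. The number of CG did not separate these 7 genes by state. They were picked with their states known, so that this does not describe P450 genes as a set.

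In the K27R list, the start sites of 44 of 97 P450 genes lay in an interval (45.4%, interval 35.2 to 55.8%), where 28.2% of all protein-coding starts did. The K27M list held 7 P450 starts (7.22%, interval 2.95 to 14.3%), against 8.94% of all starts. The EZHIP list held 6 (6.19%, interval 2.3 to 13%), against 7.96%. P450 genes were thus above the share of all genes in the reference list, and within counting error of it in both inhibitor lists. These intervals treat genes as independent, which they are not, since the 44 starts lay in 32 distinct K27R intervals.

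Of the 44 P450 starts in K27R intervals, 36 were in neither inhibitor list (81.8%, interval 67.3 to 91.8%), where the share among all genes with a K27R start was 64.3%. These 36 were 37.1% of the P450 genes, against 18.1% of all genes. The other 8 (8.25% of P450 genes, against 10.1%) had the start in an inhibitor list. They were Cyp26a1, Cyp24a1, Cyp27b1, Cyp1a1 and Cyp4x1 in both inhibitor lists (5.15%, against 6.81%), Cyp46a1 and Cyp2w1 in K27M and not EZHIP, and Cyp17a1 in EZHIP and not K27M. The remaining 53 starts lay in no list (54.6%, against 71.8%).

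The same counts were set against genes of the same island class. Without an island the P450 shares came closer to those of all such genes. With an island too few P450 genes were left to say. Among genes with a K27R start and no island, 33 of 38 P450 starts were in neither inhibitor list (86.8%, interval 71.9 to 95.6%), close to the 84.3% of all such genes. With an island, the count was 3 of 6 (50%, interval 11.8 to 88.2%), against 39.5%. Of the 86 P450 starts without an island, K27R intervals held 38 (44.2%, interval 33.5 to 55.3%, against 34.2%), K27M 4 (4.65%, against 4.3%) and EZHIP 4 (4.65%, against 4.14%), and 48 were in no list (55.8%, against 65.7%). Of the 11 with an island, K27R held 6 (54.5%, interval 23.4 to 83.3%, against 23.1%), K27M 3 (27.3%, against 12.8%) and EZHIP 2 (18.2%, against 11.2%). The 5 in no list (45.5%, against 76.8%) were Cyp20a1, Cyp2u1, Cyp2s1, Cyp4v3 and Cyp39a1.

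**Figure D1:**
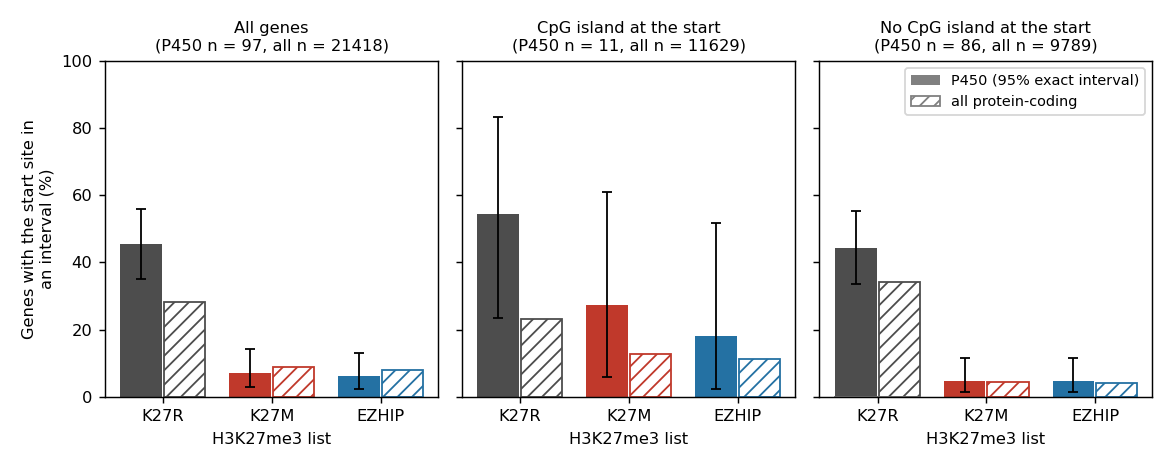
Share of genes (%) with the start site in an interval of each list, for all genes, genes with and genes without a CpG island within 500 bp of the start; filled bars are P450 genes with 95% exact binomial intervals and hatched bars all protein-coding genes. The P450 share in K27R was 45.4% against 28.2%, and without an island the K27M and EZHIP bars of both gene sets were all between 4.14% and 4.65%.

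The CpG ratio at the start was highest on the median in the 8 genes of the inhibitor lists, at 0.353, and was 0.152 in the 36 genes of the K27R list only and 0.132 in the 53 genes of no list. In all genes the medians of the same classes were 0.648, 0.281 and 0.618. Start sites in no list were thus CpG-poor in P450 genes and CpG-rich in the genome as a whole. The 8 genes themselves ranged from 0.157 to 0.855, and 5 of them had no island within 500 bp of the annotated start.

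**Figure D2:**
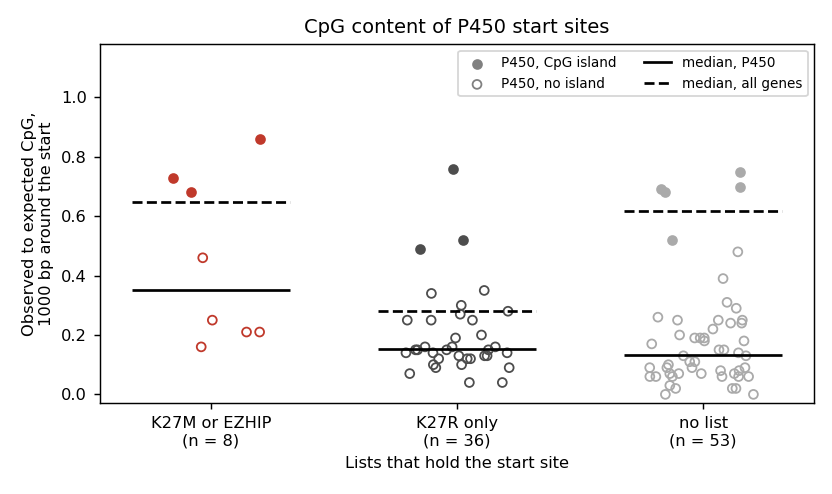
Observed to expected CpG ratio in the 1000 bp around each of 97 P450 start sites (y axis), grouped by the lists that hold the start (x axis); filled points have a CpG island, solid lines are P450 medians and dashed lines the medians of all protein-coding genes. The P450 medians were 0.353, 0.152 and 0.132 from left to right, each below the dashed line of its class.

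The Cyp26 genes, whose enzymes break down retinoic acid and shape its gradients in the embryo, differed from one another. Cyp26a1 (ENSMUSG00000024987.5, chromosome 19, 37772298 to 37776018, plus strand) lay in a K27R interval of 8.0 kb that covered the whole gene. The K27M interval there spanned 8.6 kb, from 3.90 kb upstream of the start to 4.70 kb downstream, and took in 7 of 7 exons. The EZHIP interval spanned 4.0 kb, from 1.10 kb upstream to 2.90 kb downstream, inside the K27M interval, and took in 6 of 7 exons. At this gene the K27M interval was 8.6 kb and that of K27R 8.0 kb, and 90.7% of the former lay inside the latter. Cyp26c1, its neighbour on the same chromosome, had no interval over the start or body in any list, and its start lay 8.13 kb from the nearest K27R interval.

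Cyp26b1 (chromosome 6, 84521938 to 84543740, minus strand) lay wholly in a K27R interval of 323.4 kb. Inside it a K27M interval of 13.2 kb covered 60.5% of the gene body and an EZHIP interval of 8.4 kb covered 38.5%, and the EZHIP interval lay wholly inside that of K27M. Both began downstream of the annotated gene start, by 1.54 kb for K27M and by 3.14 kb for EZHIP, and Cyp26b1 was not counted as a start in either list. A shorter annotated transcript begins 5.11 kb downstream at a CpG island, and that start lay in all 3 lists. The state of Cyp26b1 thus depended on which annotated start was read.

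The other genes of retinoic acid handling, a list of 18 carriers, synthesis enzymes, binding proteins and receptors, had 7 starts in K27R intervals (38.9%, against 28.2% of all genes), 7 in K27M (all genes, 8.94%) and 6 in EZHIP (all genes, 7.96%). The 7 were Rbp4, Stra6, Lrat, Aldh1a2, Aldh1a3, Crabp1 and Rxrg, and Aldh1a3 was the one outside the EZHIP intervals. All 7 starts of this list in K27R intervals were thus also in those of K27M. The K27M intervals held 7 of 44 P450 starts with K27R (15.9%) and 31.6% of all starts with K27R. An island lay at 10 of the 18 starts, and at all of the 7 but Rxrg and Stra6, against 6 of the 44 P450 starts. Of all genes with a K27R start, 39.5% with an island and 84.3% without were in neither inhibitor list. The part of islands in this difference was not tested.

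Of the 3 vitamin D enzymes, Cyp24a1 and Cyp27b1 had residual intervals and Cyp2r1 had none. Cyp24a1, which inactivates vitamin D (chromosome 2, 170308208 to 170322645, minus strand), lay in a K27R interval of 115.2 kb. A K27M interval of 19.4 kb covered 86.2% of its body and an EZHIP interval of 10.8 kb covered 50.2%, both with the start, the island and the start of the neighbour Pfdn4. Cyp27b1, which makes the active hormone (chromosome 10, 126485306 to 126490062, plus strand), lay wholly inside an interval of every list, which spanned 47.4 kb in K27R cells, 15.8 kb with K27M and 6.4 kb with EZHIP. Its gene start had no island within 500 bp, but a second annotated start 0.42 kb downstream did, and the K27M interval held 3 islands. Cyp2r1, a vitamin D 25-hydroxylase (chromosome 7, 121693680 to 121706486), lay wholly in a K27R interval of 56.4 kb with an island at the start, and its start was 72.7 kb from the nearest K27M interval.

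**Figure D3:**
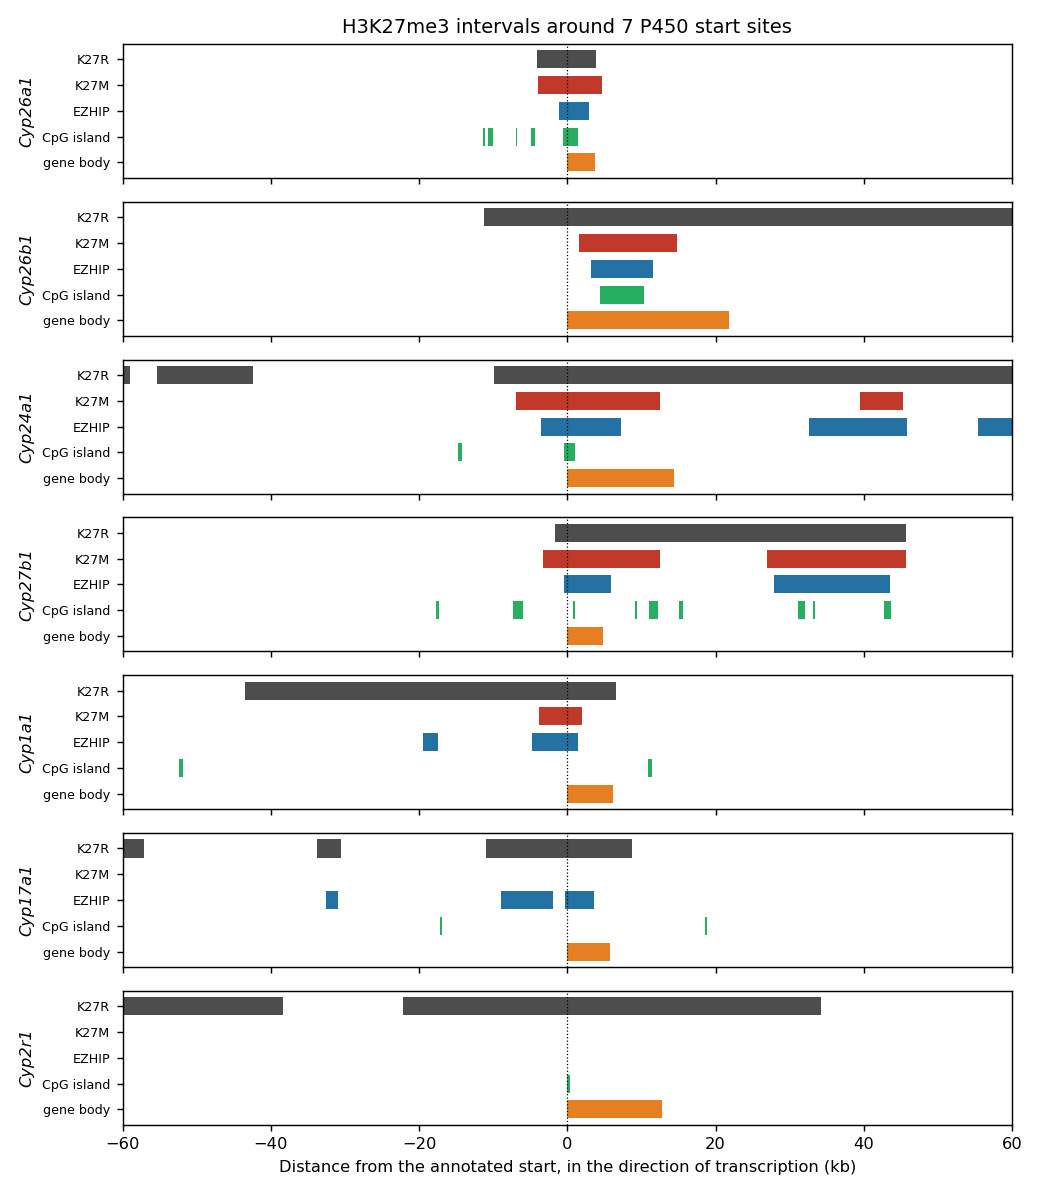
Intervals of the 3 lists, CpG islands and gene bodies around 7 P450 start sites, drawn from 60 kb upstream to 60 kb downstream of the annotated start (0, dotted) in the direction of transcription. Residual K27M and EZHIP intervals sit over the start of Cyp26a1, Cyp24a1, Cyp27b1 and Cyp1a1, begin downstream of it in Cyp26b1, are present in EZHIP only at Cyp17a1, and are absent from the drawn range of Cyp2r1.

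The 6 genes of steroid hormone synthesis all had their start and whole body in K27R intervals, without an island at any start. Cyp11a1 makes pregnenolone from cholesterol, Cyp17a1, Cyp21a1, Cyp11b1 and Cyp11b2 act on the way to androgens, gluco- and mineralocorticoids, and Cyp19a1 is aromatase. The K27R interval ranged from 19.6 kb at Cyp17a1 to 558.2 kb at Cyp19a1, and Cyp11b1 and Cyp11b2 shared 1 interval of 117.8 kb. Only Cyp17a1 of the 6 had its start in an inhibitor list, in an EZHIP interval of 4.0 kb that covered 63.1% of the body and lay 0% inside K27M intervals, and the nearest K27M interval was 83.9 kb away. Cyp17a1 was in this respect the reverse of Cyp2w1, whose start lay in a K27M interval of 1.8 kb and 26.2 kb from the nearest EZHIP interval. Both calls were marginal. The Cyp17a1 start lay 337 bp inside the EZHIP edge, and a minimum width of 2000 bp left out the K27M interval of Cyp2w1.

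In the bodies of steroid genes, the residual intervals that did not hold the start were narrow. They lay outside the exons of the longest annotated transcript. Upstream of Cyp17a1 a second EZHIP interval lay from -8.94 kb to -1.94 kb relative to the start. At Cyp11a1 a K27M interval of 3.0 kb, from 6.18 kb to 9.18 kb downstream of the start, overlapped 0 of 9 exons. At Cyp19a1 a K27M interval of 2.4 kb and an EZHIP interval of 1.2 kb lay at different places, 38.7 kb and 98.1 kb downstream, and each overlapped 0 of 9 exons. Cyp21a1, Cyp11b1 and Cyp11b2 had no inhibitor interval in the body. In Cyp21a1 only 55.7% of 31-base sequences occurred once in the genome, so that reads of this gene may not all be placed.

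Genes of bile acid and sterol oxidation were divided. Cyp7a1, the rate-limiting enzyme of bile acid synthesis from cholesterol, and Cyp39a1 had no interval over the start or body in any list, with the nearest K27R interval 18.8 kb and 31.8 kb away. Cyp8b1, the sterol 12α-hydroxylase, lay in a K27R interval of 344.0 kb and in no inhibitor interval. Cyp27a1 had its start near the edge of a K27R interval of 18.4 kb that covered 5.15% of the body. Cyp7b1 had its start in a K27R interval of 2.4 kb, and 3 K27R intervals in all covered 17.1% of its body. Neither gene had an inhibitor interval. Cyp46a1, the cholesterol 24-hydroxylase of neurons, had the most CpG-rich start of all 97 genes (ratio 0.86, 27 CG in the 250 upstream bases). Its K27M interval of 12.6 kb held the start, and a second of 2.2 kb lay in the gene over 3 of 15 exons. The EZHIP interval of 3.2 kb began 0.41 kb downstream of the start and lay wholly inside that of K27M.

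In family 1, whose members are induced through the aryl hydrocarbon receptor, the pair Cyp1a1 and Cyp1a2 shared a K27R interval of 50 kb without an island. Cyp1a1 (chromosome 9, 57545420 to 57551629, plus strand) had its start in a K27M interval of 5.8 kb and an EZHIP interval of 6.2 kb, which began 3.82 kb and 4.82 kb upstream. Of the K27M interval, 89.7% lay inside that of EZHIP. Cyp1a2 had no K27M interval and an EZHIP interval of 2.0 kb over 2 of 7 exons, 3.46 kb downstream of its start. Cyp1b1 (chromosome 17) had no interval, and its start lay 199 kb from the nearest in K27R.

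Across all P450 genes, the body was overlapped by K27R intervals in 53 genes (54.6%, against 34.2% of all genes), by K27M in 13 (13.4%, against 11.3%) and by EZHIP in 11 (11.3%, against 10.9%). The inhibitor shares were near those of all genes. The whole body lay in K27R intervals in 31 genes (32%, against 18.1%). Of the 15 genes with a residual interval in the body, 9 had both inhibitors, 4 had K27M alone (Cyp11a1, Cyp2w1, Cyp3a41a and Cyp3a41b) and 2 EZHIP alone (Cyp17a1 and Cyp1a2). Cyp4f39 differed from most in that EZHIP covered more of its body than K27M did, 33% against 6.44%, with an EZHIP interval of 8.2 kb over 6 of 12 exons. Cyp4x1 did so as well, with 8.89% against 4.6%, and its K27M interval of 2.2 kb lay wholly inside the EZHIP interval of 3.4 kb.

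**Figure D4:**
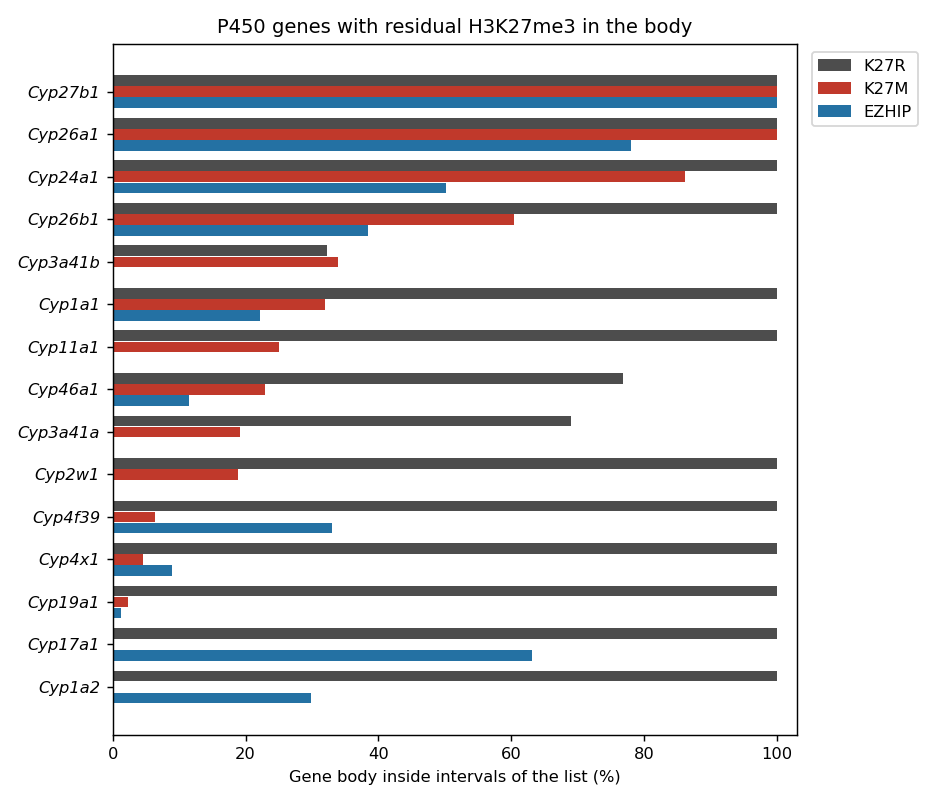
Share of the gene body (%, x axis) inside intervals of each list for the 15 P450 genes with any K27M or EZHIP interval in the body. K27M bars fall from 100% at Cyp27b1 and Cyp26a1 to 2.35% at Cyp19a1 and are absent at Cyp17a1 and Cyp1a2, where EZHIP covered 63.1% and 29.8%.

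The large families of drug and fatty acid oxidation lie mostly in clusters. When neighbours up to 100 kb apart were joined, the 97 genes formed 41 loci, 10 of them with 3 or more members and 60 genes in all. None of the 60 had an island at the start. These loci held 19 K27R starts (31.7%, interval 20.3 to 45%), near the 28.2% of all genes and the 34.2% of genes without an island. They held 0 starts in K27M or EZHIP (interval 0 to 5.96%), where genes without an island had 4.3% and 4.14%. The 37 genes in loci of 1 or 2 members, 11 of them with an island, held 25 K27R starts (67.6%, interval 50.2 to 82%). They held 7 in K27M (18.9%, interval 7.96 to 35.2%, all genes 8.94%) and 6 in EZHIP (16.2%, interval 6.19 to 32%, all genes 7.96%). The K27R share was thus above that of all genes in loci of 1 or 2 members and near it in the larger ones. Apart from Cyp21a1, all genes with under 80% of 31-base sequences found once in the genome lay in the larger clusters. The part of sequence uniqueness in this split was not tested.

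Clusters differed widely in the reference list. At the Cyp2d cluster on chromosome 15, a single K27R interval of 413.8 kb held 8 of 9 starts. K27R covered 97.7% of the locus, with K27M at 0% and EZHIP at 0.33%. Within it the K27R body cover ranged from 13.3% at Cyp2d22, which the interval edge crosses, to 100% in members such as Cyp2d9. Cyp2d26, the 1 start outside, lay 1475 bp beyond the other edge. The Cyp4f locus from Cyp4f39 to Cyp4f16 on chromosome 17 was covered to 98.6% in K27R and held 3 of 3 starts, and body cover ranged from 92.5% at Cyp4f16 to 100%. All but 1 of the 8 Cyp4f genes had the start in a K27R interval.

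At the other extreme, the Cyp2c genes on chromosome 19, which oxidise drugs and arachidonic acid, had 2 of 15 starts in K27R intervals (Cyp2c65 and Cyp2c70). K27R covered 4.84% of the 880 kb from Cyp2c55 to Cyp2c69, where body cover ranged from 0% in 8 genes such as Cyp2c29 to 61% in Cyp2c65, and 34.5% of the 195 kb from Cyp2c37 (0%) to Cyp2c70 (94.8%). The 3 Cyp2b and Cyp2a genes from Cyp2b13 to Cyp2a4 on chromosome 7 had no K27R interval in the locus, and the 8 genes from Cyp2b23 to Cyp2t4 had a cover of 1.3% and 0 starts or bodies in K27R. The Cyp4a and Cyp4b1 locus on chromosome 4, of fatty acid ω-hydroxylases, had 0 of 7 starts and a cover of 5.45%, with the highest body cover, 36.5%, at Cyp4b1. Apart from the Cyp2c37 locus, these had the lowest K27R cover of the 10 loci.

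The Cyp2j locus on chromosome 4, whose enzymes epoxidise fatty acids, was in between and was patterned differently from the Cyp2d locus. Of its 8 starts 5 lay in K27R intervals, each in an interval of its own of 9.2 to 40.4 kb, and 13 K27R intervals covered 17.9% of the 637 kb. Body cover ranged from 0% in Cyp2j6, Cyp2j8 and Cyp2j9 to 43.1% in Cyp2j12. The nearest K27M and EZHIP intervals lay at least 2151 kb and 2150 kb from these starts, the distances of Cyp2j5. The 9 Cyp3a genes on chromosome 5, the main drug oxidases of liver and gut, had 2 starts in K27R intervals. Cyp3a13 stands apart from the cluster, in a K27R interval of 198.8 kb, and Cyp3a57 lay 53 bp inside the edge of an interval of 4.6 kb. From Cyp3a57 to Cyp3a41b body cover ranged from 0% at Cyp3a16 to 47.9% at Cyp3a57, and from Cyp3a41a to Cyp3a59 from 0% to 69% at Cyp3a41a.

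**Figure D5:**
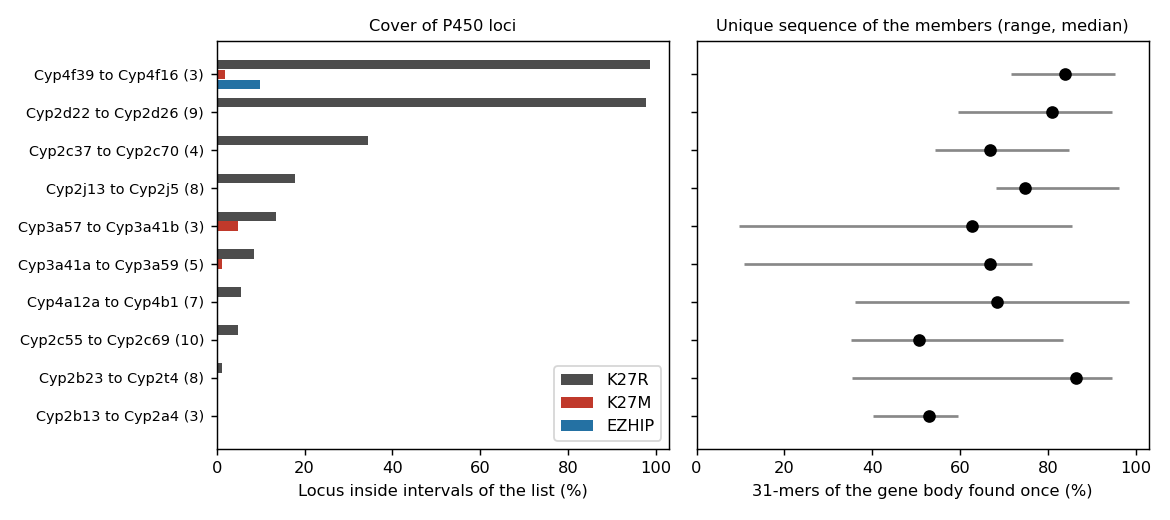
Left, share of each P450 locus of 3 or more members (number in brackets) inside intervals of the 3 lists (%). Right, share of 31-base sequences of the members' gene bodies that occur once in the genome (%, line from lowest to highest, point at the median), with K27R cover from 98.6% in the Cyp4f39 locus to 0% in the Cyp2b13 locus.

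Tandem P450 genes share sequence, and reads from near-identical copies may not all be placed. The share of 31-base sequences of the gene body that occur once in the genome ranged from 9.56% (Cyp3a41b) to 100% among the 97 genes, with a median of 84.9%. Among the 55 genes with at least 80% unique sequence, 33 starts lay in K27R intervals (60%, interval 45.9 to 73%), and among the 42 others 11 did (26.2%, interval 13.9 to 42%). All starts in K27M and EZHIP intervals were in the first class. Unique sequence thus moved with the K27R calls, and its part in them was not tested. The median unique share was 90.6% in the 44 members with a K27R start and 71.2% in the 53 without. Genes with no interval in the body had low shares, as Cyp2c68 (35.1%) and Cyp2a5 (35.5%), or high ones, as Cyp2b19 (94.7%), Cyp2b23 (93.2%) and Cyp4a14 (98.4%). The K27M intervals in the near-identical pair Cyp3a41a and Cyp3a41b, with 10.9% and 9.56% unique sequence, are uncertain for this reason, and 1 of those in Cyp3a41b lay only 54.2% inside K27R intervals.

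Genes that stand alone were divided as well. Cyp2w1, Cyp4x1, Cyp4f18 and Cyp3a13 lay wholly in K27R intervals of 80.2, 135.6, 130.8 and 198.8 kb, and the last 2 had no inhibitor interval in the body. Cyp2e1, which oxidises ethanol and small toxicants, lay farthest of all 97 genes from a K27R interval, at 3156 kb. Cyp20a1, Cyp2ab1, Cyp2u1, Cyp2c44 and Cyp4v3 also had no interval over the body in any list, with K27R distances of 291, 49.3, 86.7, 36.5 and 32.8 kb. In all, 44 of 97 P450 genes had no K27R interval over the body, and 9 had one over the body and not at the start.

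The K27R intervals at P450 starts had a median width of 117 kb counted by gene and 53.7 kb counted once each, over 32 intervals from 2.4 to 558.2 kb. For all genes with a K27R start the median by gene was 87.2 kb. The widest intervals with a start in K27R only were those of Cyp2d genes (413.8 kb), Cyp8b1 (344.0 kb) and Cyp19a1 (558.2 kb), and the narrowest those of Cyp7b1 (2.4 kb), Cyp3a57 (4.6 kb) and Cyp2j11 (9.2 kb). In 24 of the 32 intervals all P450 starts were in neither inhibitor list, and 14 of these held no inhibitor interval anywhere. In the other 10 an inhibitor interval lay elsewhere in the region. In the region of Cyp11a1, for example, 7 K27M and 4 EZHIP intervals lay over 34.1% and 21.4% of the length, and the starts of Stra6, Islr2 and 1600029O15Rik were in both. In that of Cyp8b1 the start of Kbtbd5 was in both. Of the 10 regions, 5 had the start of another gene in an inhibitor interval and 5 had none. These counts by region were not made over all K27R intervals, so that they have no comparison. By gene, 81.8% of P450 starts in K27R were in neither inhibitor list, against 64.3% of all genes with a K27R start. The starts nearest to a K27R edge were 53 bp (Cyp3a57), 463 bp (Cyp7b1) and 1253 bp (Cyp27a1) inside, and 1475 bp (Cyp2d26), 3289 bp (Cyp3a41a) and 3322 bp (Cyp4b1) outside. From the 36 starts in K27R only, the nearest K27M interval was a median of 120 kb away and the nearest EZHIP interval 113 kb, against 142 kb and 98.8 kb for all genes in K27R only.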

How the data were processed

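H3K27me3 ChIP-Seq lists of 3 MEF libraries were used, grouped by sample title. By the study's methods, the authors aligned reads with bowtie1 (Bowtie 1.0.0 in the submitters' processing notes) to mm9 and a reference genome, and called broad peaks per library with MOSAiCS-HMM. Whether reads with several placements were removed is not given in the sources used here. The deposited lists hold positions only, on a 200 bp grid, with no score or count.

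Gene starts, bodies and sequences came from GENCODE vM1 and NCBIM37 (mm9), the build of the lists. A start was called inside when its base lay in an interval, and a body when at least 1 bp did. CpG islands (27075 on chromosomes 1 to 19 and X) were found by scoring 17 for each CG and -1 for other bases, over 200 bp, with at least 50% G+C and a CpG ratio above 0.6. Uniqueness was counted over exact 31-base sequences on either strand. Shares have 95% Clopper-Pearson intervals, which cover counting error only; with 1 library per group no test was made. Interval, island and sequence counting were tested on simulated data.

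The antibody label reads H2K27me3 and the titles H3K27me3. Exons were those of the longest annotated transcript.

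Named genes were the members with a residual interval, those of families 1, 7, 8, 11, 17, 19, 21, 24, 26, 27, 39 and 46, the extremes of loci with 3 or more members, and those with the widest and narrowest K27R intervals or next to an edge. Other members, such as Cyp20a1, were named after their values were seen. Members and lists were chosen with earlier results of these data known. Alternatives were transcript starts, distances of 1000 and 5000 bp, minimum widths of 2000 and 5000 bp, merging up to 10000 bp, a body cover of 50%, counting by locus, unique sequence of at least 80%, and other island rules. Python 3.11.15, numpy 2.4.6, pandas 2.3.3, scipy 1.17.1 and numba 0.67.0 were used.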

Additional observations from a re-analysis of the deposited data

How the results depend on the processing

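Of 57 alternatives to 8 counts, 48 stayed within 1.5 times the reported count. Counting each locus once gave 28 loci of 41 with a K27R start (68.3%) and 30 with a body in K27R (73.2%). A start in K27R only was found in 21 loci (51.2%). These counts were lower as fewer units were counted, and the shares higher as any 1 member sufficed. With intervals of at least 5000 bp, EZHIP starts fell to 3 (3.09%, against 6.16% of all genes) and bodies to 5 (5.15%, against 7.49%). K27M bodies fell to 8 (8.25%, against 8.72%). Requiring 50% of the body gave 4 genes in K27M (4.12%, against 4.08%) and 4 in EZHIP (4.12%, against 3.43%). Islands of at least 500 bp lay at 5 P450 starts (5.15%, against 39.3%). Any annotated transcript start gave 46 starts in K27R (47.4%, against 29.7%) and 8 in K27M (8.25%, against 9.58%). It gave 7 in EZHIP (7.22%, against 8.71%), and Cyp26b1 was in all 3 lists. The setting without the 2 symbols ending in -ps was chosen after the data were seen. No paired analysis was possible because each group has 1 library. Lists without counts leave depth unknown, so that an absent interval does not show that H3K27me3 was absent.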

Other observations

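Enzymes of the second phase of drug metabolism, which conjugate the products of P450 enzymes, were read in the same way. Of 56 Ugt, Gst and Sult genes, 22 had the start in a K27R interval (39.3%), and 0 in K27M or EZHIP. The shares of all genes were 28.2%, 8.94% and 7.96%, and those of genes without an island 34.2%, 4.3% and 4.14%, and an island lay at 4 of the 56 starts. K27M intervals overlapped the bodies of 9 Ugt1a genes, which overlap one another, from 4.27% of Ugt1a10 to 99% of Ugt1a1. EZHIP intervals overlapped 2 bodies, to 16.4% in Gstt3 and 1.6% in Sult4a1.

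Electron donors of P450 enzymes, which most P450 reactions need, had 0 of 5 starts in any list, with the same shares of all genes as above (Por, Cyb5b, Cyb5r3, Fdx1 and Fdxr). Fdxr was covered in the body all the same, to 78.2% by K27R, 56.1% by K27M and 16.2% by EZHIP. A further listed donor, Cyb5a, was not found under that symbol among the genes read and was not scored. Of 13 regulators of P450 genes, 8 starts lay in K27R intervals (61.5%, against 28.2% of all genes), with Nr5a1, Nr5a2 and Ppara also in K27M and Nr5a2 and Ppara also in EZHIP (all genes, 8.94% and 7.96%), while those of Ahr and Arnt lay in none. Of 8 other genes of steroid synthesis, 5 were in K27R (62.5%, against 28.2%) and 1, Srd5a2, in both inhibitor lists (all genes, 6.81%). Of 8 other bile acid genes, 2 were in K27R (Fabp6 and Slc10a1, 25%, against 28.2%) and 0 in an inhibitor list (all genes, 10.1%). Markers of adrenal and gonadal steroid cells had 3 of 5 starts in K27R (60%, against 28.2%). They had 1 in K27M (Nr5a1) and 1 in EZHIP (Inha, which was outside the K27R intervals), against 8.94% and 7.96% of all genes. Of 4 epithelial markers, 2 were in K27R (Cdh1 and Epcam, 50%, against 28.2%) and Epcam was also in both inhibitor lists (all genes, 6.81%). With 4 to 8 genes in each of these last lists, their inhibitor counts cannot be told apart from the shares of all genes.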
